A study of Mus musculus with 6 samples.

Results

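Integrin and laminin subunits were followed in mouse hearts after feeding with a high fat diet (HFD) or a normal diet (ND). The members were taken by gene name from the array design, as every probe named for an integrin alpha subunit, for 1 of the integrin beta subunits Itgb1 to Itgb8, or for a laminin alpha, beta or gamma chain. This gave 50 of the 55681 probes other than controls, 37 for 26 integrin genes and 13 for 11 laminin genes. Both groups were male C57BL/6 mice, started at 4 weeks of age and kept on their diet for 4 months, with 3 hearts in each group. Fat made up 60% of the kcal of the HFD, and ND mice ate standard chow. The labels name no transgene, drug or other treatment in either group. Each heart was hybridised to 1 Agilent array in 1 colour, all 6 on 1 slide. Separate hearts are the replicates, and their number limits the precision of every value. Levels below are the log2 of the deposited intensity relative to the 75th percentile of the array, so that a level of 0 is a probe at that percentile, and levels of different probes are not set against each other.

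Integrins are receptors made of 1 alpha and 1 beta chain that tie the matrix outside a cell to its actin skeleton. Laminins are trimers of an alpha, a beta and a gamma chain and build the basement membrane that wraps each cardiomyocyte, vessel and nerve. In cardiomyocytes the main laminin receptor pairs the beta chain Itgb1 with the alpha chain Itga7. Itgb6 pairs with the alpha chain Itgav alone, is known mainly from epithelium, and its receptor frees TGF-beta from its latent complex.

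The results turn on the probes of Itgb6, the beta chain that stood apart, on those of the beta chain Itgb1, on those of Itga1, where the diets overlapped on 1 probe and not on the other, and on that of Lama4, the laminin chain with the smallest p. Their deposited sequences follow, each 60 bases long, with no base marked. The first Itgb6 probe (A_51_P161054) was placed by the array files on mm9 at chr2:60438632-60443247 on the minus strand. That stretch of 4616 bases is longer than the probe. The second (A_52_P93974) lay at chr2:60492788-60492847 on the same strand. Both were designed on the Itgb6 transcript NM_021359.
Itgb6 A_51_P161054: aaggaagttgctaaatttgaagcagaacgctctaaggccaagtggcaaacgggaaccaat
Itgb6 A_52_P93974: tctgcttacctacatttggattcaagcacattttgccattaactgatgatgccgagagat

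The Itgb1 probes (transcript NM_010578, plus strand) lay at chr8:131250081-131255976 and chr8:131246349-131246408 of mm9. Those of Itga1 (NM_001033228, minus strand) lay at chr13:115756765-115758419 and chr13:115821387-115825525. The Lama4 probe (NM_010681, plus strand) lay at chr10:38825794-38825853.
Itgb1 A_66_P113059: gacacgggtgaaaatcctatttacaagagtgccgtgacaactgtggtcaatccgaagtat
Itgb1 A_52_P351816: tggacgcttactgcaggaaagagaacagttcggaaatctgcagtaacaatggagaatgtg
Itga1 A_52_P459929: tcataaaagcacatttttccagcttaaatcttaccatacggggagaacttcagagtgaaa
Itga1 A_52_P518922: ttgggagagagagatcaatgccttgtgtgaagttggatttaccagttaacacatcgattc
Lama4 A_51_P212420: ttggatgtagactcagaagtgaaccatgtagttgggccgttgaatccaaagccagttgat

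Well above background were 50.6%, 52.6% and 49.2% of all probes in ND 1 to ND 3. In HFD 1 to HFD 3 the share was 53.0%, 52.8% and 52.7%, higher than in any ND heart. No spot was saturated. Of 8 cardiomyocyte markers all were tested, with mean levels of 8.23 to 8.47 in the 6 hearts. Atrial markers (Sln, Nppa, Myl7 and Myl4) differed widely between hearts, with means of 4.71, 6.0 and 7.54 in ND 1 to ND 3 and of 7.88, 1.22 and 6.88 in HFD 1 to HFD 3. Markers of smooth muscle had a mean of 4.10 in HFD 1 and of 3.09 to 3.48 in the other 5 hearts. HFD 1 and HFD 2 lay on row 1 of the slide and the other 4 arrays on row 2.

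A probe was tested when all arrays of 1 diet, or of both, had it well above background. This held for 42 of the 50 member probes, from 31 of the 37 genes, and for 27590 probes in all. Of the 42 probes, 40 were well above background in all 6 hearts, and 2 (the second Itgb6 probe and 1 of the Itgal probes) passed through the HFD hearts, with 2 of 3 ND hearts well above background. Before adjustment, 8 member probes had a limma p below 0.05 (19.0%), where 11.9% of all probes tested did. Of these, 7 were higher in HFD, against a background of 5.24%, and 1 was lower, against 6.63%. After Benjamini-Hochberg adjustment over all probes, 0 members passed, where 4 probes (0.0145%) did. At a p below 0.05 and a change of at least 2-fold there were 3 member probes, all higher (background 0.613%, and 0.315% for higher alone). These were the probe of Itgax and both probes of Itgb6, the second of which had entered the test through the HFD hearts, where it is high, and so adds no support. Over the 40 probes well above background in all 6 hearts, 7 (17.5%) had an unadjusted p below 0.05, where 11.9% of all such probes did.

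The count of 8 and its distance from the background leaned on single hearts. It was 4 (9.52%) without ND 1, where 7.86% of all probes passed, and 4 (9.52%) without ND 2, where 8.28% did. Without ND 3 it was 3 (6.98%) against 10.6%, without HFD 1 it was 5 (11.9%) against 11.8%, without HFD 2 it was 9 (21.4%) against 12.6%, and without HFD 3 it was 6 (14.3%) against 10.4%. For 9 member probes the diets did not overlap, 8 with HFD above and 1 with HFD below, where 19.0%, 7.92% and 11.1% of all probes did so. More of the 42 probes lay above 0 than below. The difference was positive for 33 of them (78.6%, background 48.0%), and the median log2 fold change was 0.09, against -0.01 over all probes. Without the 2 Itgb6 probes the median was 0.07, and 31 of 40 were positive. The same 6 hearts stand behind every probe, so these counts describe the list and carry no test. The integrins had a median of 0.14 over 30 probes, 26 of them positive, and the laminins of 0.04 over 12 probes, 7 of them positive. The laminin median was 0.02 without ND 1, 0.02 without ND 3 and 0.0048 without HFD 2.

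**Figure D1:**
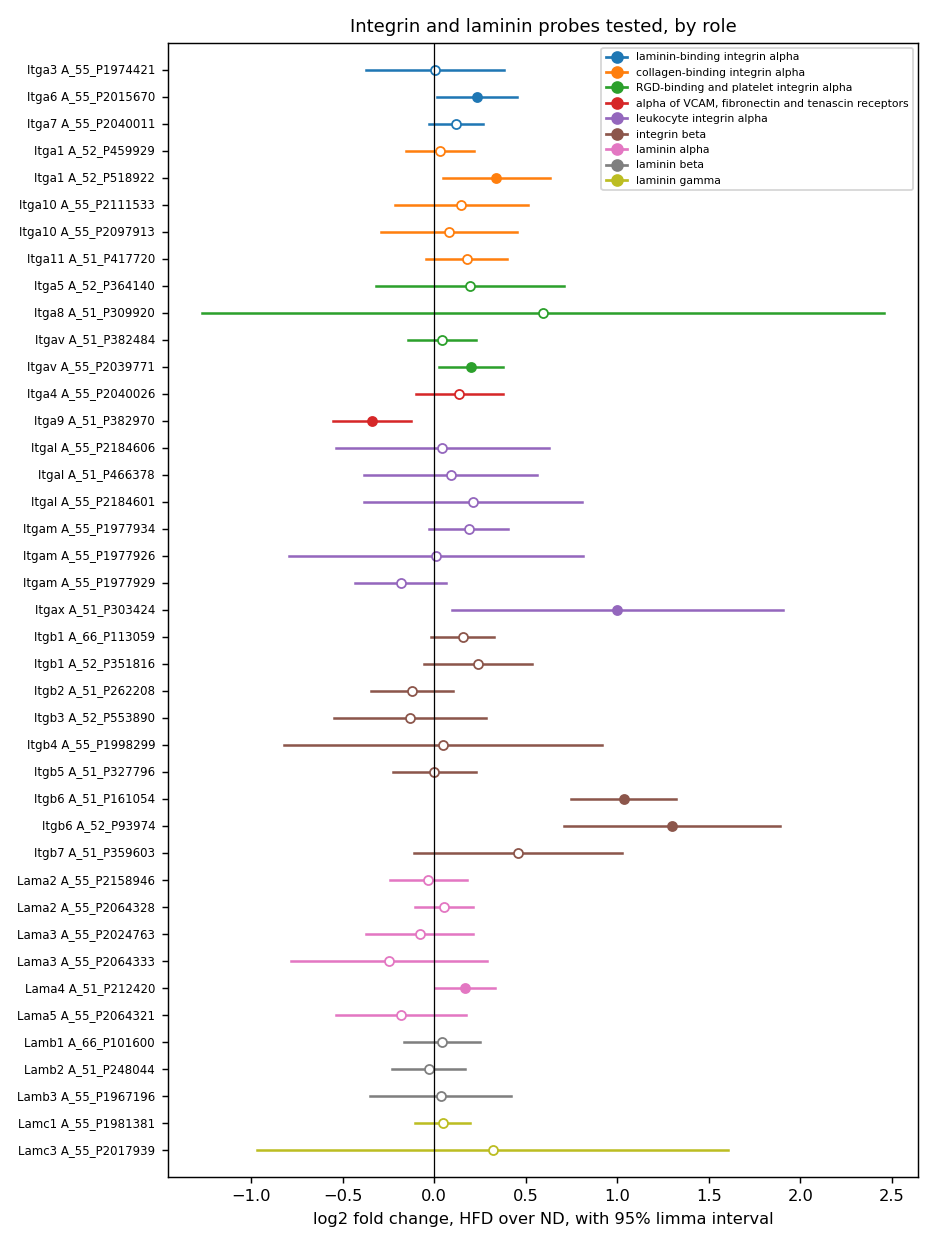
Log2 fold change of HFD over ND (x axis) for the tested probes, 1 of them left out, grouped by the role of the subunit, with 95% limma intervals from 3 hearts per group; filled points have an unadjusted p below 0.05. The interval of the first Itgb6 probe lies to the right of all laminin point estimates drawn, but within the interval of Lamc3 (-0.97 to 1.61). Itga9 is the only filled point below 0.

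Itgb6 was higher in every HFD heart than in any ND heart on its first probe, by 2.05-fold. The first probe had intensities of 571, 462 and 493 in ND 1 to ND 3 and of 1149, 1060 and 1034 in HFD 1 to HFD 3. Its levels were 0.22, -0.07 and 0.05 in the ND hearts and 1.16, 1.22 and 0.93 in the HFD hearts. The groups were separated by several times the spread within either, with a mean of 0.07 ± 0.15 in ND and 1.1 ± 0.16 in HFD (SD, n = 3). The log2 fold change was 1.03 (SE 0.12, 95% interval 0.75 to 1.32), with a limma adjusted p of 0.0851. By p it ranked 35 among the 27590 probes, and it missed the adjusted limit.

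The second Itgb6 probe was dim, and it was tested only because all HFD hearts had it well above background, so its values are a description and do not support those of the first. Its levels were -4.46, -4.24 and -4.32 in ND 1 to ND 3 and -2.48, -3.27 and -3.37 in HFD 1 to HFD 3. HFD 1 was the highest and the groups did not overlap. The means differed by 1.30 on the log2 scale, and by 0.46 with normexp background correction.

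Slide row was shared unevenly by the diets, so the comparison was repeated within row 2, where HFD 3 alone stood against the 3 ND hearts. There the first Itgb6 probe differed by 0.86 and the second by 0.97, values without a test of their own, since 1 HFD heart shows no spread. Row 1 held HFD hearts only and gives no value. Across 19 other ways of processing the arrays Itgb6 differed by 0.86 to 1.17, in 1 direction each time. The 1.17 came from averaging both Itgb6 probes, the second of which had entered the test through the HFD hearts. On the first probe alone the largest difference was 1.12, without HFD 3. Row 2 alone and slide row as a term are among the 19. Both gave the same 0.86, a size of difference only, since row 1 held no ND heart. In the others the unadjusted p was below 0.05 each time, and the adjusted p ran from 0.0183 to 0.373. The first probe passed the adjusted limit in 2 of them, normexp background correction (limma adjusted p = 0.0271) and an intensity trend with robust variances (limma adjusted p = 0.0183).

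**Figure D2:**
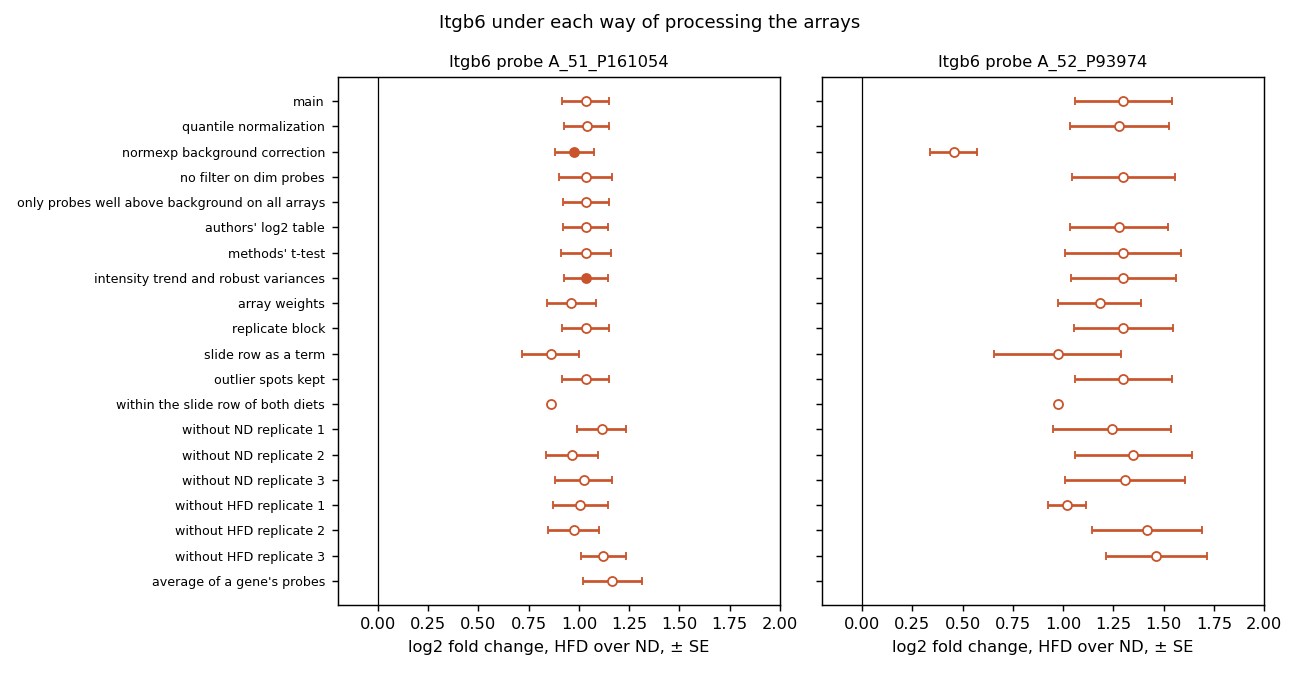
Log2 fold change of HFD over ND (x axis, ± SE) for the Itgb6 probes under each processing of the arrays (y axis), with filled points where the adjusted p was below 0.05 and no bar within the slide row of both diets, which holds 1 HFD heart. All points lie to the right of 0. Slide row as a term is drawn with a bar, though its difference rests on that same HFD heart. The second probe has no value where only probes well above background in all 6 hearts were kept. Where probes of a gene were averaged, the mean of both probes is drawn with the first.

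Heart tissue is a mix of cells, in which a change in the number of cells of a type and a change in RNA per cell cannot be told apart. Of 13 epithelial marker genes 5 were tested, and 0 of them had a limma p below 0.05 (0 after adjustment). The mean level of the tested ones was -2.72 to -2.54 in ND and -2.98 to -2.57 in HFD. By direction, 3 of these 5 tested markers were lower in HFD hearts and 2 were higher. Their median difference was -0.20 on the log2 scale. Cdh1, Elf3, Sftpb and Sftpc were not well above background in any heart, and Epcam was so in 1 HFD heart. Among these dim and untested markers, Epcam had levels of -6.73, -6.68 and -5.84 in ND 1 to ND 3 and of -5.03, -3.66 and -5.49 in HFD 1 to HFD 3. Cdh1 had -6.70 to -6.54 in ND and -6.49 to -6.08 in HFD. The mesothelial marker Krt19, well above background in 1 HFD heart, had -6.88, -5.61 and -6.68 in ND and -2.92, -4.89 and -5.10 in HFD. For each of these 3 genes all HFD hearts lay above the ND hearts, at levels that are mostly not above background. They were chosen after their values were seen, and how often dim probes did so was not counted. Elf3, dim as well, had a lower mean in HFD (-6.83) than in ND (-6.64). The mesothelial marker Msln was at -0.83 in HFD 1 and between -6.90 and -3.91 in the other 5 hearts, and only Wt1 of 7 mesothelial markers was tested. The part of mesothelial or epithelial cells in the Itgb6 difference was not tested.

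Of the probes for other beta chains, 0 had an unadjusted limma p below 0.05 (0 after adjustment). Itgb1, which most alpha chains of muscle need as their partner, had levels of 2.38, 2.32 and 2.28 in ND 1 to ND 3 and of 2.48, 2.55 and 2.42 in HFD 1 to HFD 3 on its brighter probe. The HFD hearts all lay above the ND hearts, but by a small step, a log2 fold change of 0.16 (SE 0.07, limma adjusted p = 0.459). Its other probe gave 0.24 (SE 0.12, limma adjusted p = 0.502) with overlap. Itgb5, a further partner of Itgav, differed by 0.00 with a 95% interval of -0.22 to 0.23, and Itgb3 (another partner of Itgav) by -0.13 with an interval of -0.54 to 0.28. Itgb2, the common beta chain of leukocyte integrins, differed by -0.12 (limma adjusted p = 0.663). The leukocyte chain Itgb7 differed by 0.46 (SE 0.23, limma adjusted p = 0.508), with levels of -2.80 to -2.38 in ND and of -2.23, -2.39 and -1.60 in HFD 1 to HFD 3. Itgb8, which pairs with Itgav too, and the second Itgb3 probe were not well above background in any heart.

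Itgav, the alpha partner of Itgb6, was close to level between the diets on its brighter probe, which had levels of -1.15, -1.32 and -1.18 in ND 1 to ND 3 and of -1.13, -1.23 and -1.16 in HFD 1 to HFD 3. The groups overlapped, with a log2 fold change of 0.04 (95% interval -0.14 to 0.23, limma adjusted p = 0.868). The dimmer probe had levels of -2.47, -2.46 and -2.61 in ND and of -2.33, -2.31 and -2.29 in HFD. There the groups did not overlap, with a log2 fold change of 0.20 (SE 0.07, limma adjusted p = 0.376). Both intervals lie below that of the first Itgb6 probe.

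Itga9 was the 1 member lower in HFD at an unadjusted p below 0.05. It pairs with Itgb1 as a receptor for tenascin, VCAM and other ligands. Its levels were 2.83, 2.66 and 2.66 in ND 1 to ND 3 and 2.48, 2.35 and 2.31 in HFD 1 to HFD 3. Every HFD heart was below every ND heart, with a log2 fold change of -0.34 (SE 0.09, limma adjusted p = 0.264), or a level 1.26-fold higher in ND. Across the 19 other ways of processing the difference lay between -0.41 and -0.28. Row 2 alone and slide row as a term both gave -0.41, a size of difference that rests on HFD 3 alone. In the others the unadjusted p was below 0.05 each time, and in 0 of them did it pass the adjustment. Itga4, the closest relative of Itga9, differed by 0.14 (limma adjusted p = 0.638) on its tested probe, and its second probe was not well above background in any heart.

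**Figure D3:**
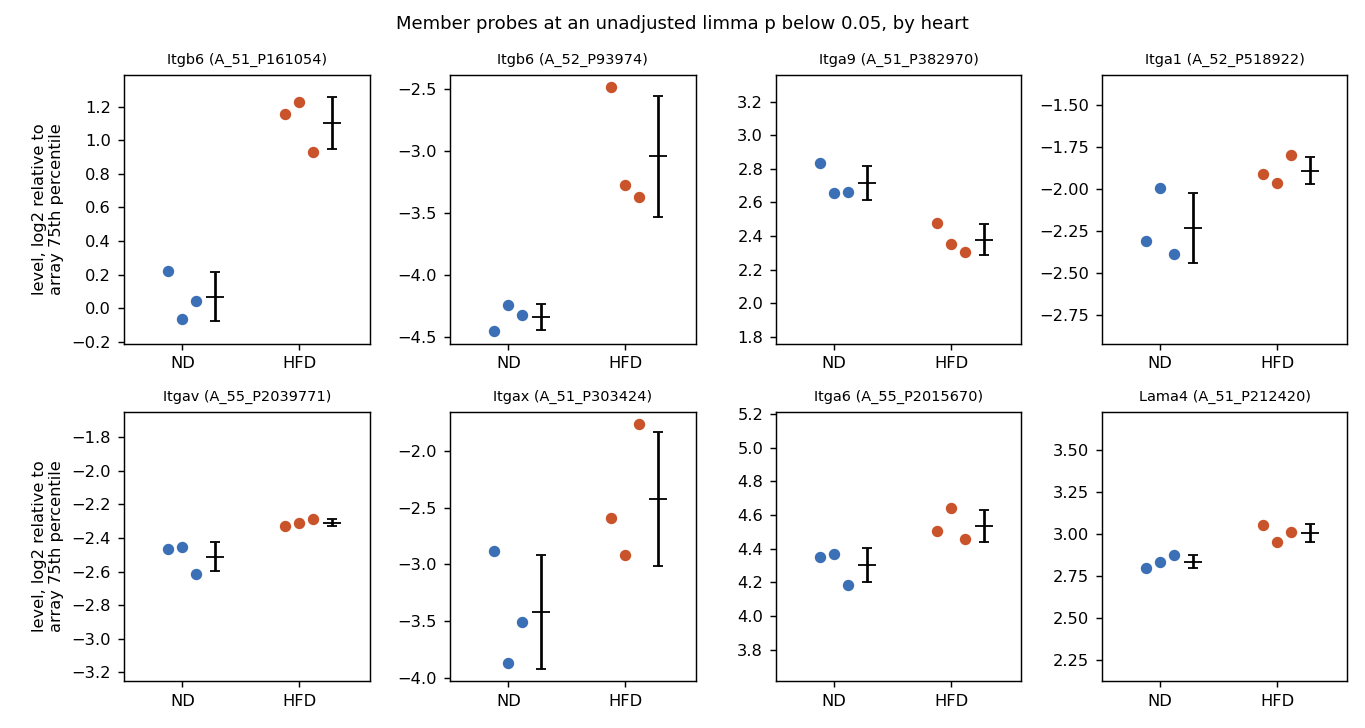
Level of each member probe with an unadjusted limma p below 0.05 (y axis, log2 relative to the 75th percentile of the array, each panel on its own range) in the ND and HFD hearts (points), with the mean and SD of 3 hearts beside them. The groups are apart in 7 of the 8 panels and overlap for Itgax. The panels were chosen by p in these same hearts, so that count adds no support.

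Among the laminin-binding alpha chains, Itga6 was higher in every HFD heart. Its levels were 4.35, 4.37 and 4.18 in ND 1 to ND 3 and 4.50, 4.64 and 4.46 in HFD 1 to HFD 3. The HFD hearts lay above the ND hearts by a log2 fold change of 0.23 (SE 0.09, limma adjusted p = 0.398). The unadjusted p was no longer below 0.05 without ND 1, ND 2, ND 3, HFD 1 or HFD 2, with log2 fold changes of 0.26, 0.27, 0.17, 0.25 and 0.18 in that order. Within row 2, with its 1 HFD heart, it was 0.16. Itga7, the main alpha chain of the adult cardiomyocyte, had levels of 6.06, 6.02 and 6.07 in ND and of 6.18, 6.18 and 6.15 in HFD. Its groups did not overlap, and its log2 fold change of 0.12 had a limma adjusted p of 0.512. Itga3 differed by 0.00 (95% interval -0.37 to 0.38).

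The collagen receptors were measured for 3 genes. The brighter Itga1 probe had levels of 0.73, 0.84 and 0.67 in ND 1 to ND 3 and of 0.75, 0.84 and 0.75 in HFD 1 to HFD 3, which overlap (log2 fold change 0.03, 95% interval -0.15 to 0.22, limma adjusted p = 0.905). The dimmer one had -2.31, -2.0 and -2.39 in ND and -1.91, -1.96 and -1.80 in HFD, which do not (log2 fold change 0.34, SE 0.12, limma adjusted p = 0.368). The difference between the 2 probes of this gene was not tested. Itga11, a fibroblast collagen receptor, differed by 0.18 (limma adjusted p = 0.508), and the probes of Itga10, which share 54 of their 60 bases, by 0.15 and 0.08. Itga2 was well above background in 1 heart of each diet and was not tested. The fibronectin receptor chain Itga5 differed by 0.20 (limma adjusted p = 0.764), and the platelet chain Itga2b, well above background in 2 ND hearts and 1 HFD heart, was not tested.

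Of the leukocyte alpha chains, Itgax (CD11c), found on dendritic cells and some macrophages, differed most. Its levels were -2.88, -3.87 and -3.51 in ND 1 to ND 3 and -2.59, -2.91 and -1.76 in HFD 1 to HFD 3. HFD 3 was the highest and ND 1 lay above HFD 2, so the groups overlapped. The log2 fold change was 1.0 (SE 0.37, 95% interval 0.10 to 1.91, limma adjusted p = 0.387). It was 0.67 without HFD 3, 0.77 without ND 2, 0.96 without ND 3 and 1.08 without HFD 1, each time with an unadjusted p no longer below 0.05. Normexp background correction gave 0.48 (limma adjusted p = 0.353). Row 2 alone, with HFD 3 as its 1 HFD heart, gave 1.66, a value without a test.

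The 3 probes of Itgam (CD11b) did not move together, with differences of 0.19, 0.01 and -0.18 and limma adjusted p of 0.472, 0.992 and 0.548. The probe with 0.19 begins with 10 CA pairs in a row, and the other probes of the gene with 0. The 3 probes of Itgal (CD11a) differed by 0.04, 0.09 and 0.21, each with overlap. Itgad and Itgae were not well above background in any heart. Beside these chains, the mean level of 10 macrophage markers was 1.13 to 1.20 in ND and 1.0 to 1.08 in HFD, with 7 of the 10 lower in HFD and 0 at an unadjusted p below 0.05. The lymphocyte markers had means of -1.29 to -1.18 in ND and of -1.33 to -1.10 in HFD, highest in HFD 3, with 1 of 6 tested (Cd79b) lower at an unadjusted p below 0.05. Their part in the Itgax difference was not tested.

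Among the laminin chains, 1 of the 12 probes tested had an unadjusted p below 0.05, that of Lama4, and 0 passed the adjustment. Lama4, the alpha chain of vessel basement membranes, had levels of 2.80, 2.83 and 2.88 in ND 1 to ND 3 and of 3.05, 2.95 and 3.01 in HFD 1 to HFD 3. The HFD hearts all lay above the ND hearts, by a log2 fold change of 0.17 (SE 0.07, limma adjusted p = 0.412). The unadjusted p was no longer below 0.05 without ND 1, ND 2, ND 3, HFD 1 or HFD 3, with differences of 0.15, 0.17, 0.19, 0.14 and 0.17 in that order. Within row 2, with its 1 HFD heart, the difference was 0.17.

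The other laminin chains described here overlapped between the diets. Lama2, the alpha chain of the cardiomyocyte's own basement membrane, differed by -0.03 and 0.05 on its probes, with 95% intervals of -0.24 to 0.18 and -0.11 to 0.21. Lamb1 differed by 0.04 (-0.17 to 0.25), Lamb2 by -0.03 (-0.23 to 0.17) and Lamc1, the gamma chain shared by most laminins, by 0.05 (-0.10 to 0.20). Lama5 differed by -0.18 (-0.54 to 0.18). Lama3 and Lamb3, known from epithelial laminin, differed by -0.08 (-0.37 to 0.21) and -0.25 (-0.78 to 0.29) on the probes of Lama3 and by 0.04 for Lamb3. Lama1, a chain of embryonic laminin, was not well above background in any heart.

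Several members varied more between hearts of 1 diet than between diets. The median SD over the tested member probes was 0.13 in ND and 0.15 in HFD, but 5 probes had an SD above 0.5 in HFD. Besides Itgax they included Itga8, Lamc3 and Itgb4. Itga8, an RGD-binding chain of smooth muscle and related cells, had levels of -0.04, 0.11 and 0.31 in ND 1 to ND 3 and of 2.51, -0.59 and 0.23 in HFD 1 to HFD 3. HFD 1 stood above all other hearts and HFD 2 below them, and the log2 fold change of 0.60 had an SE of 0.76.

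Lamc3 had levels of -3.91, -3.34 and -3.93 in ND and of -2.28, -4.38 and -3.56 in HFD, again highest in HFD 1 and lowest in HFD 2, and its difference of 0.32 had a 95% interval of -0.97 to 1.61. Itgb4, the partner of Itga6 in hemidesmosomes, had -1.92, -1.54 and -1.50 in ND and -1.11, -2.42 and -1.29 in HFD, in the same manner. The hearts at the ends are those with the highest (HFD 1) and the lowest (HFD 2) mean of the atrial and of the smooth muscle markers. From lowest to highest, Itga8 put all 6 hearts in the order of their atrial marker mean. The sources used here do not say whether atria and great vessels were kept with the hearts. The part of atrial or vessel tissue in these levels was not tested.

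**Figure D4:**
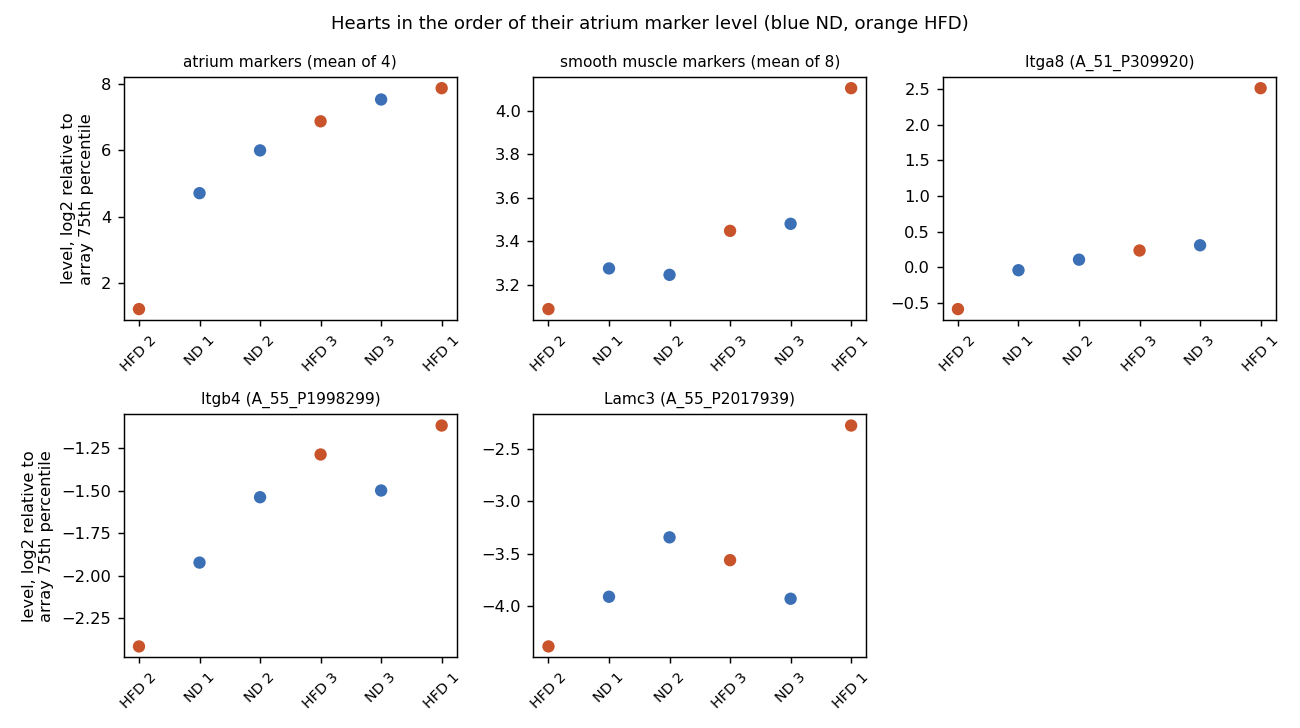
Levels (y axis, log2 relative to the 75th percentile of the array, each panel on its own range) in the 3 ND and 3 HFD hearts, ordered along x by their mean atrial marker level. The panels hold the atrial and smooth muscle marker means, and Itga8, Itgb4 and Lamc3, which were chosen after their values were seen. HFD 2 is lowest and HFD 1 highest in every panel. Itgax, which also had an SD above 0.5 in HFD, is not drawn. It was highest in HFD 3 and lowest in ND 2.

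Genes that work with the integrins and laminins were taken from 4 lists of 97 genes, 1 probe per gene. Of 86 tested, 4 were higher and 3 lower at an unadjusted limma p below 0.05 (8.14%, where 11.9% of all probes tested had one), 0 after adjustment. Over the 86 the median log2 fold change was 0.03. Among 27 tested linkers and kinases on the cytoplasmic side, 0 were higher and 2 lower. These were Apbb1ip (RIAM), which brings talin to integrins, at -0.60 (limma adjusted p = 0.405), and Itgb1bp1 (ICAP-1), which binds the tail of the Itgb1 chain, at -0.21 (limma adjusted p = 0.409). Talin itself (Tln1) differed by 0.03.

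Among 17 basement membrane partners of laminin, 2 were higher and 0 lower. Col15a1, a collagen of muscle and vessel basement membranes, had levels of -3.22, -3.06 and -3.45 in ND and of -2.58, -2.79 and -2.70 in HFD, without overlap (log2 fold change 0.55, SE 0.12, limma adjusted p = 0.232). Ntn4, a netrin that binds the gamma chain of laminin, differed by 0.47 (SE 0.14, limma adjusted p = 0.309), with mean levels of -4.06 in ND and -3.59 in HFD. Both probes were dim, and neither gene was followed under the other ways of processing. The main collagens of the membrane, Col4a1 and Col4a2, differed by 0.01 and 0.07. Of 19 other laminin receptors of muscle 0 were higher and 1 lower, Dtna (dystrobrevin) at -0.27 (SE 0.07, limma adjusted p = 0.283), and dystroglycan (Dag1) differed by -0.00.

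Among 23 tested ligands of integrins, 2 were higher and 0 lower. Tgfb2, a TGF-beta, differed by 0.41 (SE 0.14, limma adjusted p = 0.353) and the matrix protein Cyr61 by 0.52 (SE 0.18, limma adjusted p = 0.360). Of the TGF-beta forms whose latent complex binds the receptor of Itgav and Itgb6, Tgfb1 differed by -0.03 (limma adjusted p = 0.931) and Tgfb3 by 0.15 (limma adjusted p = 0.643). Fn1 (fibronectin) and Vtn (vitronectin) differed by 0.18 and 0.07, each with overlap. Tnc (tenascin-C), a ligand of Itga9, was not well above background in any heart.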

How the data were processed

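Hearts of 3 ND- and 3 HFD-fed mice were measured on 6 Agilent mouse arrays. The authors deposited scanner files of linear intensity, extracted with Agilent Feature Extraction 10.7.1.1 (background subtracted within each array, nothing normalized between arrays), and log2 values of the same arrays. Each column of the authors' log2 table ranked probes as its own array did (Spearman's rho of 1, and 0.954 or less against any other array), its scale is log2 with a column median of 4.56, and how it was made is not given in the sources used here. It lay within a median difference of 0.00179 of a quantile normalization. It was used as an alternative only.

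Control spots and the 127 to 190 outlier-flagged spots per array were dropped, and replicate spots averaged. Levels are log2 intensities minus the 75th percentile of the array (453 to 544). A tested probe was well above background in all hearts of a diet and had values in 2 or more hearts of each. The diets were compared by limma 3.58.1 in R 4.3.3 (lmFit, eBayes, two-sided tests), and p-values were adjusted by Benjamini-Hochberg over 27590 probes. Input used data.table, version 1.17.8, and jsonlite 2.0.0, the robust fit needed statmod 1.5.0, and plots came from matplotlib 3.10.9 under Python 3.11.15. The code was tested on simulated data. Arrays of a group correlated at Pearson's r of 0.990 to 0.995.

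Members and lists were chosen with earlier results of these data known. Values in every heart are given for Itgb6 and for members with a probe at an unadjusted p below 0.05. Values in every heart for Itgb1, Itga7, Itga8, Itgb4, Lamc3 and Col15a1, and the other list genes named beyond those with the smallest p, were chosen after their values were seen. Genes carry the names that the array files give, and all 37 member symbols matched RefSeq. The separate result of 1 member is not reported here. The alternatives were quantile normalization, normexp (offset 50), no filter or a stricter filter on dim probes, the authors' table, the methods' t-test, robust variances with an intensity trend, weighted arrays, a replicate block, slide row as a term or alone, outlier spots kept, a gene's probes averaged, and each heart left out.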

Additional observations from a re-analysis of the deposited data

How the results depend on the processing

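The count of member probes at an unadjusted p below 0.05 was 8 as reported. It was 5 of 50 with no filter on dim probes (10%, where 6.17% of all probes passed). With the probes of a gene averaged it was 5 of 31 (16.1% against 12.2%). No count is given for slide row as a term or alone, where each difference rests on 1 HFD heart. The count ran from 3 to 9 when each heart was left out. Past the adjustment there was 1 probe with normexp and 1 with robust variances and an intensity trend, in both cases Itgb6, whose log2 fold change was then 0.98 and 1.03. With each heart left out, the first Itgb6 probe ran from 0.97 to 1.12. The median over laminin probes, 0.04 as reported, ran from 0.0048 (without HFD 2) to 0.0351 (without HFD 1) when each heart was left out. It was 0.0188 without ND 1 and 0.0159 without ND 3. Over the same steps the brighter Itga1 probe ran from -0.0061 (without ND 3) to 0.0775 and the brighter Itgav probe from -0.0081 (without ND 2) to 0.0742. The causes were not tested.

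The labels do not say whether replicate numbers pair hearts of the 2 diets, and the main comparison did not pair them. Deviations of same-numbered hearts from their group correlated at -0.15, 0.15 and 0.19, which cannot decide it. With the replicate number as a block, 5 of 42 member probes (11.9%, against 10.9% of all probes) had an unadjusted p below 0.05 and 0 passed the adjustment, and Itgb6 differed by 1.03 (limma adjusted p = 0.275). The integrin median stayed between 0.08 and 0.17 under every alternative. The second Itgb6 probe and Itgax, both dim, had their lowest values (0.46 and 0.48) with normexp. Among alternatives that tested 42 member probes, the fewest positive ones were 29, without ND 2 and without HFD 1. Of all probes, 48.4% and 52.6% were positive there. With no filter 37 of 50 members were positive (44.2% of all probes), and with the stricter filter 31 of 40 (46.8%). Without ND 3 it was 30 of 43 (44.1%), and with a gene's probes averaged 25 of 31 (47.8% of all genes).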
